A study of Mus musculus with 8 samples.

Results

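The Polycomb group genes Ezh1, Ezh2, Eed, Suz12, Bmi1, Ring1, Rnf2, Cbx2, Cbx7 and Cbx8 were followed in neural stem and progenitor cells that had lost Prmt5, an arginine methyltransferase whose substrates include histones and splicing proteins. These 10 genes, of 16562 with a probe on the array, were picked by name, and all 13 probes that the annotation of the bead array assigns to them were taken, of 25662 probes in all. The Prmt5-depleted cells had the genotype Prmt5F/FNes, in which both copies of Prmt5 are floxed and Cre recombinase is under Nestin control and so acts in neural progenitors. The control cells were Prmt5F/F, with the same floxed gene and no Cre, so Cre itself and loss of Prmt5 cannot be told apart. Both came from mouse embryos at E14.5 on a mixed C57BL/6 X 129S1/SvlmJ background. Biotin-labelled copies of their total RNA were read on 4 Illumina MouseRef-8 V2 arrays per genotype. Whether the 4 samples of a genotype are separate embryos or cultures is not given in the labels, so a p-value here reflects only how far these samples vary, which may be technical.

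Polycomb proteins keep developmental genes silent through marks on histones. Polycomb repressive complex PRC2 holds Eed, Suz12 and either Ezh2 or Ezh1, which methylates a lysine in the tail of histone H3. Complexes of the PRC1 kind hold Ring1 or Rnf2, ligases that attach ubiquitin to histone H2A, with a partner such as Bmi1, and the canonical ones add a Cbx protein whose chromodomain can read the mark left by PRC2. In the developing mouse brain Ezh2 takes part in timing the change from making neurons to making glia, and Bmi1 sustains self-renewal of neural stem cells, in part by silencing the Cdkn2a locus.

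Promoter sequence is shown for the core subunits of PRC2, because Ezh2 and Suz12 fell in the arrays described below and Eed, their obligate partner, did not pass the test. Each window is taken from RefSeq in build GRCm38.p6, runs from 250 bases before the gene's start to 50 bases after it, and is written in the direction of the gene. Windows matched 9 of the 10 genes, all but Cbx2. Capitals mark a match to any of the 4 words TTTCCCGC, TTTCGCGC, TTTGCCGC and TTTGGCGC, spellings of the consensus for E2F factors, searched on both strands with no other motif searched. The Ezh2 window is chr6:47594981-47595280 on the minus strand, the Suz12 window chr11:79992856-79993155 on the plus strand and the Eed window chr7:89980927-89981226 on the minus strand.
Ezh2 promoter: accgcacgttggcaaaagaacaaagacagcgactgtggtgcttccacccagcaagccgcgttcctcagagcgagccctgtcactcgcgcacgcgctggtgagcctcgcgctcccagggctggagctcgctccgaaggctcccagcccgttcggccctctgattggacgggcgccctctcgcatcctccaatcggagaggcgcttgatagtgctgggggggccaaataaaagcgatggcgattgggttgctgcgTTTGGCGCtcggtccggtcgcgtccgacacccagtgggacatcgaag
Suz12 promoter: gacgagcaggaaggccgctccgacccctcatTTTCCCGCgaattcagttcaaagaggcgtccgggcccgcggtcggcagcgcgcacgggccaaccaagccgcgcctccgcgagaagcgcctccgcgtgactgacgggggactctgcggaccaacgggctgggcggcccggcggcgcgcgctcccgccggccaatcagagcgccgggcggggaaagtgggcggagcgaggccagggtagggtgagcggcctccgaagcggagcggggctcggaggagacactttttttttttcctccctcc
Eed promoter: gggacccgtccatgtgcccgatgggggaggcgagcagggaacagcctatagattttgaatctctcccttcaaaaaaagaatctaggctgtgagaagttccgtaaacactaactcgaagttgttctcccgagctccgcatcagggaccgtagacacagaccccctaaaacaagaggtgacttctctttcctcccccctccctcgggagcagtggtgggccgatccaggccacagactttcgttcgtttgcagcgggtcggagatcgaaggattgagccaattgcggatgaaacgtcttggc
The Ezh2 window holds TTTGGCGC, whose first letter lies 3 bases after the start, and the Suz12 window holds TTTCCCGC, which begins at position -219. None of the words occur in the windows of Ring1 and Bmi1, which also fell, or of Eed, Ezh1, Rnf2, Cbx7 or Cbx8. Cbx2 fell too and had no window. Of all 32851 windows in the table, 744 hold at least 1 of the words, which is 2.26%. That share is over windows of every base composition, and none was taken over windows matched in CpG. A match is a string of letters and was not tested as a binding site. The 9 windows were rich in CpG, with an observed over expected ratio between 0.71 for Bmi1 and 1.09 for Suz12, against a median of 0.38 over all windows, and 28.4% of all windows reached the lowest value of the 9.

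Prmt5 was lower on every array of the Prmt5-depleted cells. At its brightest probe, ILMN_2983093, the normalized log2 signal was 7.39, 7.84, 7.32 and 8.21 on Prmt5-depleted arrays 1 to 4, against 10.02, 10.48, 10.54 and 10.52 on control arrays 1 to 4. The difference was -2.70 (SE 0.20, adjusted p = 1.04e-06 by limma), and the remaining probes differed by -2.60 and -3.08. Where these probes lie relative to the floxed part was not determined, so they match the labels in direction without measuring the deletion. Testing was limited to the 13196 probes with a detection p below 0.05 on 4 or more of the 8 arrays. Mean deposited signal was 472 to 573 on Prmt5-depleted and 449 to 598 on control arrays, and 12518 to 13602 probes were detected per array. The number of arrays limits the precision. Prmt5-depleted 1 and 3 and control 4 lay apart from the other arrays along the second principal component, which held 10.5% of the variance, while the first, with 74.1%, separated the genotypes.

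Among the Polycomb group genes Ezh2, Suz12, Ring1, Bmi1 and Cbx2 fell in Prmt5-depleted cells, none rose, and Eed, Rnf2 and Cbx8 did not pass the test. Ezh1 and Cbx7 were too dim to be tested. Counted by probe, 9 of the 13 were tested, 6 were lower and 0 higher in limma at an adjusted p under 0.05, and the counts at an unadjusted p under 0.05 were the same 6 and 0. The background was large: of all tested probes 24.7% were called lower and 22.1% higher. Counted by gene, 5 of 8 tested members were lower, against 24.1% of all 9001 genes taken at their brightest tested probe. The Prmt5-depleted arrays all lay below the control arrays at 5 of the 9 probes, which happened at 22.3% of all tested probes. Of the 9 probes, 8 were detected on all 8 arrays, and the ninth, a dim Ezh2 probe, on 3 of 4 Prmt5-depleted and 4 of 4 control arrays. The median log2 difference was -0.51 over these 9 probes and -0.064 over all tested probes. The members were chosen by name as a group of genes, with earlier results of these data known, and their share is only a description of this group. Because the arrays read bulk RNA, fewer cells of a type and less RNA per cell cannot be told apart.

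**Figure D1:**
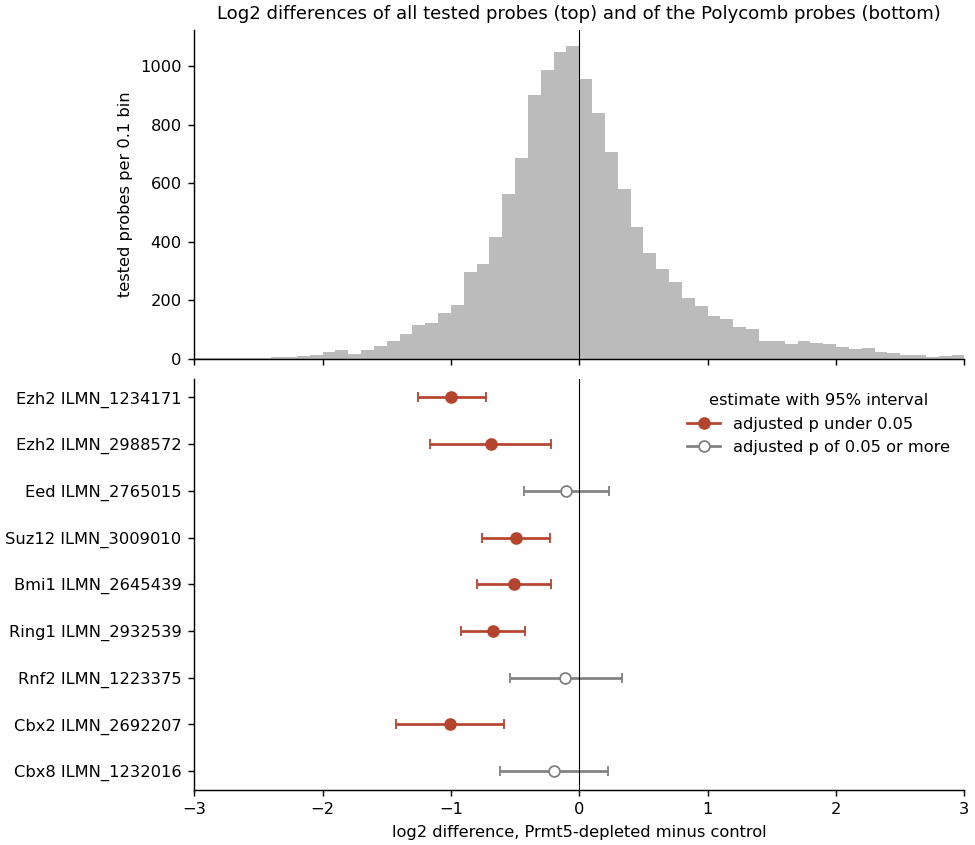
The top panel counts all tested probes by log2 difference, Prmt5-depleted minus control, in bins of 0.1, with 15 probes below -3 and 44 above 3 outside the axis. The bottom panel gives the 9 tested Polycomb probes on the same axis, with points for estimates and bars for 95% intervals. All 9 estimates lie at or left of -0.10, and the 6 filled points passed the test.

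Ezh2, the main methyltransferase of PRC2 in dividing cells, fell by a factor of 2.00. At probe ILMN_1234171 its log2 signal was 10.58, 10.27, 10.22 and 10.21 on Prmt5-depleted arrays 1 to 4, against 11.29, 11.36, 11.25 and 11.37 on control arrays 1 to 4. The genotypes did not overlap, and the highest Prmt5-depleted array was array 1. The log2 difference was -1.0 (SE 0.12, 95% interval -1.26 to -0.73, adjusted p = 4e-05), and 5.76% of all tested probes had a lower one. It was nearly the same in every setting tried, from -1.08 to -0.96.

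A second Ezh2 probe, ILMN_2988572, was far dimmer. It read 6.12, 5.48, 5.97 and 5.08 on Prmt5-depleted arrays 1 to 4, against 6.34, 6.60, 6.05 and 6.44 on control arrays 1 to 4. The genotypes overlapped, since Prmt5-depleted 1 lay above control 3. The difference of -0.69 (SE 0.22, adjusted p = 0.0198) lost its call without Prmt5-depleted 2 (-0.63, adjusted p = 0.0556), without control 2 (-0.61, adjusted p = 0.0587) and in the fit of all probes without the detection filter (adjusted p = 0.0582). It shrank to -0.44 with an offset of 50 and to -0.36 and -0.31 in the 2 settings without background correction, and grew to -1.05 without the 3 arrays that lay apart. The third Ezh2 probe, ILMN_2606429, was detected on none of the 8 arrays. Where each probe lies in the transcripts of Ezh2 was not determined.

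Ezh1, the alternative catalytic subunit, which in mice is the more abundant one in many non-dividing tissues, stayed near background. Probe ILMN_3107974 read 5.38, 5.17, 5.30 and 4.94 on Prmt5-depleted arrays 1 to 4, against 5.16, 5.15, 5.16 and 5.18 on control arrays 1 to 4, and was detected on 3 of 4 Prmt5-depleted arrays and 0 of 4 control arrays. The values overlapped, and the lowest of all 8 was Prmt5-depleted 4. In the fit of all probes the difference was 0.03 with a 95% interval of -0.18 to 0.25 (adjusted p = 0.869). The other probe, ILMN_2773467, was detected on no array and differed by -0.04. At this signal a change of Ezh1 was not detectable, and whether Ezh2 and Ezh1 changed unequally could not be tested.

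Suz12, the subunit that holds PRC2 together and helps place it on chromatin, fell by a factor of 1.41. Its probe ILMN_3009010 read 11.47, 11.29, 11.30 and 11.16 on Prmt5-depleted arrays 1 to 4, against 11.86, 11.97, 11.66 and 11.70 on control arrays 1 to 4. The genotypes did not overlap, though the gap between Prmt5-depleted 1 and control 3 was small. The difference was -0.49 (SE 0.12, 95% interval -0.76 to -0.23, adjusted p = 0.00595).

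Eed, which binds the methylated histone tail and stimulates the enzyme, read 9.0, 9.35, 9.05 and 8.88 on Prmt5-depleted arrays 1 to 4, against 9.12, 9.09, 8.96 and 9.51 on control arrays 1 to 4, at probe ILMN_2765015. The genotypes overlapped and control 4 was the highest array. The difference was -0.10 with a 95% interval of -0.43 to 0.23 (adjusted p = 0.605). Without control 4 it was 0.01 (adjusted p = 0.96), and without all 3 arrays that lay apart 0.06 (adjusted p = 0.816). A fall as large as that of Ezh2 lies outside this interval, and 0 lies inside it.

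Ring1, a ubiquitin ligase of PRC1, fell by a factor of 1.59. Probe ILMN_2932539 read 7.37, 7.49, 7.37 and 7.64 on Prmt5-depleted arrays 1 to 4, against 8.23, 8.03, 8.11 and 8.17 on control arrays 1 to 4. The genotypes stood clearly apart, and replicates within each differed little. The difference was -0.67 (SE 0.12, 95% interval -0.92 to -0.42, adjusted p = 0.000558).

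Rnf2, which encodes the paralogous ligase also called Ring1B, read 6.76, 6.73, 6.76 and 6.80 on Prmt5-depleted arrays 1 to 4, against 6.57, 6.85, 6.52 and 7.54 on control arrays 1 to 4, at probe ILMN_1223375. The Prmt5-depleted arrays were almost level (SD 0.03, n = 4) and lay within the wide range of the controls (SD 0.47, n = 4), in which control 4 was highest. The difference was -0.11 with a 95% interval of -0.54 to 0.33 (adjusted p = 0.69). Without control 4 it was 0.12 (adjusted p = 0.457), and without the 3 arrays that lay apart also 0.12 (adjusted p = 0.555).

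Bmi1, a partner that stimulates the ligases of PRC1, fell by a factor of 1.43. Probe ILMN_2645439 read 8.40, 8.01, 8.24 and 7.87 on Prmt5-depleted arrays 1 to 4, against 8.65, 8.66, 8.56 and 8.69 on control arrays 1 to 4. The genotypes did not overlap, and the spread was wider among Prmt5-depleted arrays (SD 0.23, n = 4) than among controls (SD 0.06, n = 4). The difference was -0.51 (SE 0.13, 95% interval -0.80 to -0.22, adjusted p = 0.0076). Prmt5-depleted 1 and 3, which lay apart along the second component, were the higher of the 4 arrays here and at the dim Ezh2 probe. With that split as a covariate the difference for Bmi1 was -0.57 (adjusted p = 0.00133).

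Cbx2, a chromodomain protein of PRC1, fell by a factor of 2.02. Probe ILMN_2692207 read 5.69, 5.44, 5.75 and 5.92 on Prmt5-depleted arrays 1 to 4, against 7.24, 6.71, 6.24 and 6.66 on control arrays 1 to 4. The genotypes did not overlap, but the Prmt5-depleted values were close to background, with deposited signals of 108.5 to 118.7, against 135.5 to 171.1 on control arrays. The difference was -1.01 (SE 0.19, 95% interval -1.43 to -0.59, adjusted p = 0.0011). Its size depended on the background step: it was -0.57 in the authors' quantile-normalized values and -0.51 in quantile-normalized signals with 16 added, still called in both (adjusted p = 0.00212 and 0.00293).

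Cbx8, another chromodomain subunit, read 6.97, 6.65, 7.42 and 7.20 on Prmt5-depleted arrays 1 to 4, against 6.83, 7.44, 7.51 and 7.25 on control arrays 1 to 4, at probe ILMN_1232016. The genotypes overlapped widely, and the difference was -0.20 with a 95% interval of -0.62 to 0.22 (adjusted p = 0.413). It was -0.06 without Prmt5-depleted 2, -0.12 without control 3, -0.32 without Prmt5-depleted 3 and -0.34 without control 1, and passed the test in none of these. Cbx7, a subunit that exchanges with Cbx2 during differentiation of mouse embryonic stem cells, was detected on 0 of 4 Prmt5-depleted arrays and 1 of 4 control arrays, control 3 at 5.66, and was not tested. In the fit of all probes it differed by -0.34 (95% interval -0.77 to 0.10, adjusted p = 0.276).

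**Figure D2:**
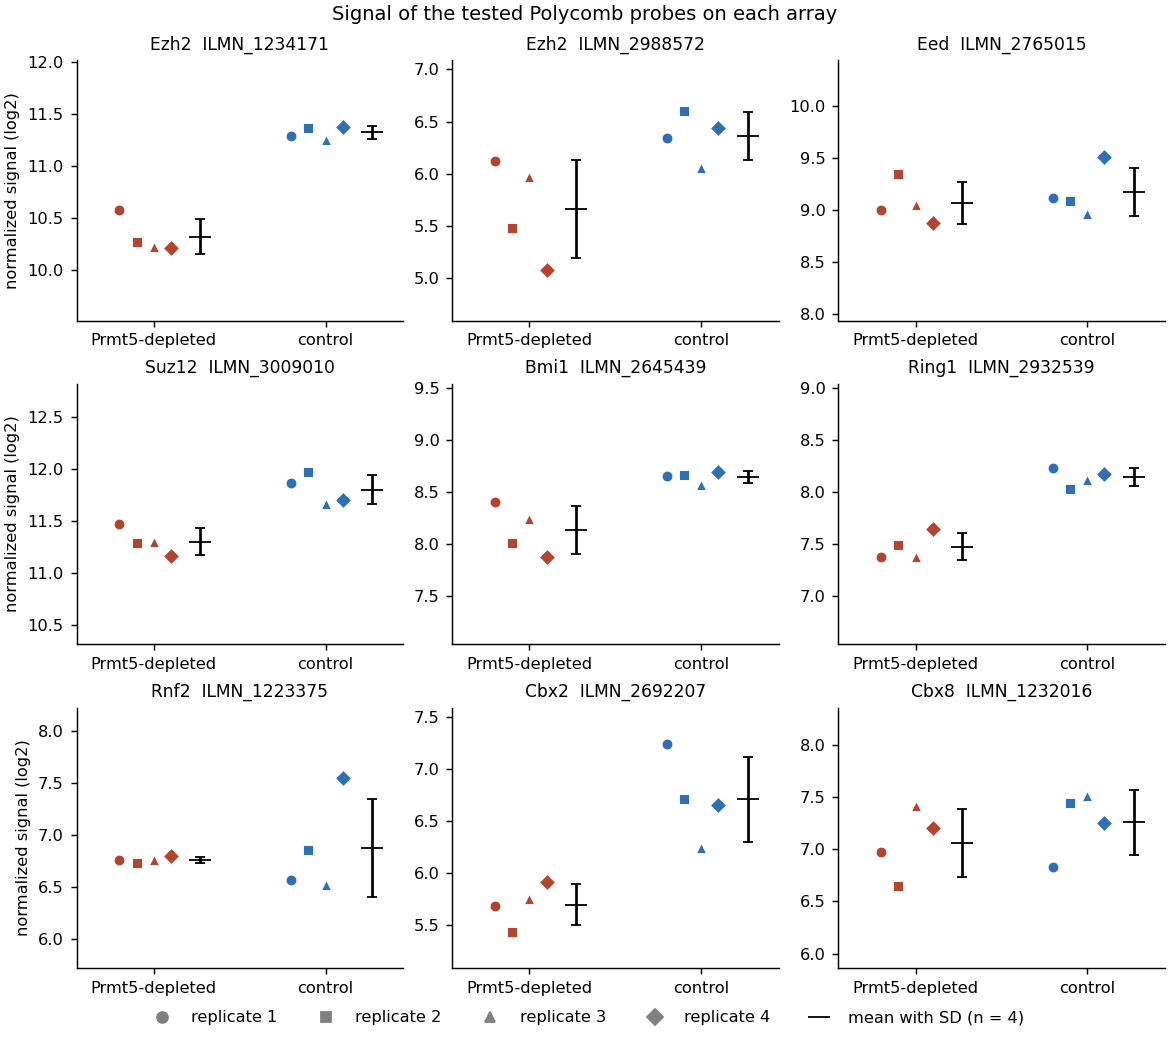
Normalized log2 signal of the 9 tested Polycomb probes, with Prmt5-depleted arrays left of control arrays, a symbol for each replicate number and the mean with its SD (n = 4) beside them. Every panel spans the same height on the log2 scale. The genotypes do not overlap for Suz12, Bmi1, Ring1, Cbx2 and the brighter Ezh2 probe, and a single high control array, replicate 4, stands out for Rnf2.

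Whether paralogs changed unequally was tested on the log2 difference between their probes within each array, for the 2 of 5 planned pairs in which both genes were measured. Rnf2 minus Ring1 was -0.61, -0.75, -0.61 and -0.84 on Prmt5-depleted arrays 1 to 4, against -1.66, -1.19, -1.59 and -0.63 on control arrays 1 to 4. The values overlapped through control 4, and the change of 0.56 had p = 0.0857 in a two-sided exact permutation test of the 70 regroupings, where 0.0286 is the smallest p possible. Cbx2 minus Cbx8 was -1.28, -1.20, -1.67 and -1.28 on Prmt5-depleted arrays 1 to 4, against 0.41, -0.73, -1.28 and -0.59 on control arrays 1 to 4, a change of -0.81 with p = 0.0857 in the same exact test. This change was -0.49 without control 1, -0.53 with an offset of 50, and -0.43 and -0.38 in the 2 settings without background correction. Adjusted over the 2 pairs both p-values were 0.0857 in this permutation test, so an unequal change was not shown for either pair.

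The genes whose array profiles were closest to that of Ezh2 were Trp53i13, Usp3 and Sgf29. Likeness was the root mean square difference over the 8 arrays between log2 profiles centred on their means, and it was 0.063 for Trp53i13, 0.082 for Usp3 and 0.099 for Sgf29 among 9001 genes taken at their brightest tested probe. Their log2 differences between Prmt5-depleted and control cells were -1.08, -0.96 and -0.93.

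Other genes of the Polycomb and Trithorax systems did not move as 1 group. Of 50 genes on 4 lists, 39 had a probe and 34 were tested, of which 6 were lower, 4 higher and 24 not called, with a median log2 difference of -0.12. These shares, 17.6% lower and 11.8% higher, stand beside 24.1% lower and 23.7% higher among all 9001 genes, whose median was -0.042.

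Of 5 tested accessory genes of PRC2, 1 fell and 1 rose. Epop, an elongin-binding partner of PRC2, fell 1.81-fold and read 7.62, 7.60, 7.41 and 7.92 on Prmt5-depleted arrays 1 to 4, against 8.70, 8.38, 8.42 and 8.49 on control arrays 1 to 4. The genotypes did not overlap (log2 difference -0.86, SE 0.14, adjusted p = 0.00031). Aebp2, a cofactor that stimulates PRC2, rose 1.28-fold (log2 difference 0.36, adjusted p = 0.0226). The call of Aebp2 was lost without control 2, control 3 or Prmt5-depleted 3 (log2 differences 0.33, 0.32 and 0.33 with adjusted p = 0.0634, 0.07 and 0.0654). Jarid2 and Phf1 were detected on no array.

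Of 16 other tested PRC1 genes, 4 fell and 3 rose. Pcgf5, an alternative to Bmi1 in variant PRC1, fell 1.90-fold and read 8.85, 8.73, 8.80 and 8.77 on Prmt5-depleted arrays 1 to 4, against 9.75, 9.60, 9.68 and 9.82 on control arrays 1 to 4. Replicates lay within a narrow band in both genotypes, far apart from each other (log2 difference -0.93, SE 0.11, adjusted p = 3.07e-05). E2f6, a repressive E2F factor found in variant PRC1, fell 1.60-fold (log2 difference -0.67, adjusted p = 0.000871), and its other tested probes differed by -0.67 and -0.64. Going the other way, Auts2, which joins the Pcgf5 complex and has been tied to gene activation in mouse brain, rose 1.85-fold and read 8.20, 7.28, 7.91 and 7.72 on Prmt5-depleted arrays 1 to 4, against 6.79, 7.01, 6.87 and 6.89 on control arrays 1 to 4. All Prmt5-depleted arrays lay above the controls (log2 difference 0.89, SE 0.18, adjusted p = 0.00143). The difference of Auts2 was 0.65 and 0.61 in the 2 settings without background correction and 0.61 without the 3 arrays that lay apart, still called in each. Its other probes did not pass the detection filter.

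Scmh1, a homologue of the fly protein Sex comb on midleg, rose 1.84-fold (log2 difference 0.88, adjusted p = 0.00115). Its difference was 0.58 and 0.53 in the 2 settings without background correction, still called in both, and its other probe was detected on no array. Named after their values were seen, the polyhomeotic genes Phc2 and Phc1 fell 1.39-fold and 1.36-fold (adjusted p = 0.00338 and 0.0146), and Yaf2, a subunit of variant PRC1, rose 1.28-fold (adjusted p = 0.0219). The call of Yaf2 was lost without control 3 or Prmt5-depleted 4 (log2 difference 0.32 in both cases, adjusted p = 0.0676 and 0.059).

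Of 5 tested genes of the complex that removes ubiquitin from H2A, 0 passed the test in limma and 0 had an unadjusted p under 0.05. Its catalytic gene Bap1 read 9.85, 9.68, 9.66 and 9.63 on Prmt5-depleted arrays 1 to 4, against 9.56, 9.43, 9.59 and 9.43 on control arrays 1 to 4, and the log2 difference of 0.20 had an adjusted p of 0.16. For Foxk1, a DNA-binding partner, the difference was 0.26 (adjusted p = 0.183), and it was called only without control 1 (0.38, adjusted p = 0.049).

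Among 8 tested Trithorax genes and demethylases of the PRC2 mark, 1 fell and 0 rose in limma, with 2 lower and 0 higher at an unadjusted p under 0.05. Wdr5, a scaffold of the complexes that methylate H3 at active genes, fell 1.30-fold (log2 difference -0.38, adjusted p = 0.0467). Its call was lost under 10 of 16 alternatives, which include leaving out any of 7 arrays: without controls 1, 2 and 4 its adjusted p was 0.12, 0.0786 and 0.0718, and without Prmt5-depleted 1 to 4 it was 0.0867, 0.116, 0.0639 and 0.0585. The log2 differences without these 7 arrays, taken in the same order, were -0.27, -0.39, -0.38, -0.37, -0.32, -0.41 and -0.41.

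**Figure D3:**
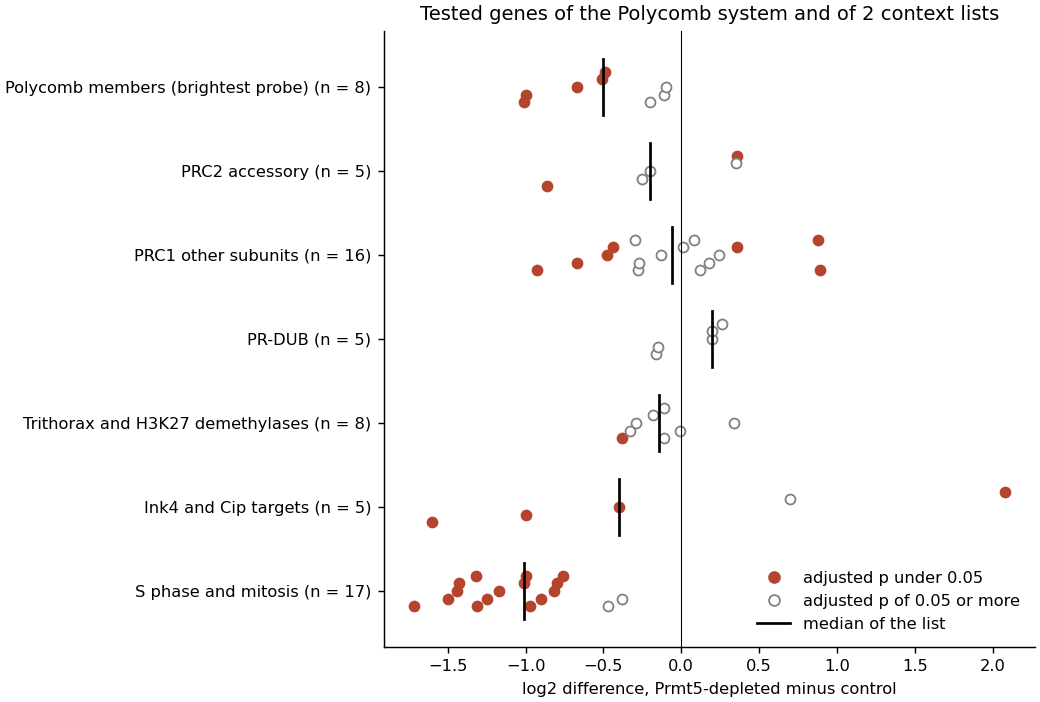
Each point is the log2 difference, Prmt5-depleted minus control, of 1 tested gene at its brightest probe, by list, with a bar at the list's median. Filled points passed the test. Called genes lie only left of 0 among the Polycomb members, the Trithorax genes with demethylases and the genes of S phase and mitosis, and on both sides of 0 among accessory PRC2 and other PRC1 genes and the Ink4 and Cip genes.

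Cell cycle inhibitors, several of them known targets of Polycomb silencing, moved in different directions. The Cdkn2a locus, which Bmi1 and Ezh2 silence in many mouse cell types, read 7.08, 7.33, 7.21 and 7.72 on Prmt5-depleted arrays 1 to 4, against 7.62, 7.64, 7.82 and 7.83 on control arrays 1 to 4, at probe ILMN_1226950. The genotypes overlapped at Prmt5-depleted 4, and the log2 difference was -0.40 (SE 0.15, adjusted p = 0.0449), with -0.57 (adjusted p = 0.0191) at its other probe. Which of the locus's transcripts the probes read was not determined. The first call was lost under 11 of 16 alternatives: without controls 1 to 4 (log2 differences -0.43, -0.43, -0.36 and -0.36, adjusted p = 0.0522, 0.0628, 0.105 and 0.0873) or Prmt5-depleted 1, 2 or 3 (-0.31, -0.39 and -0.35, adjusted p = 0.126, 0.0802 and 0.11), and it was -0.17 (adjusted p = 0.441) without the 3 arrays that lay apart.

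Cdkn2c, an inhibitor of the same family at another locus, fell 2.00-fold and read 8.68, 8.28, 8.54 and 8.44 on Prmt5-depleted arrays 1 to 4, against 9.52, 9.41, 9.33 and 9.66 on control arrays 1 to 4 (adjusted p = 6.35e-05). Cdkn1c, an imprinted inhibitor, fell 3.04-fold and read 10.33, 10.34, 10.34 and 10.77 on Prmt5-depleted arrays 1 to 4, against 11.38, 11.91, 11.97 and 12.94 on control arrays 1 to 4 (adjusted p = 0.00042). Neither overlapped between genotypes. Cdkn1a, which p53 activates, rose 4.22-fold (log2 difference 2.08, SE 0.17, adjusted p = 2.49e-06), and Cdkn2b, beside Cdkn2a in the genome, differed by 0.70 (adjusted p = 0.0601).

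Hox genes, classical targets of Polycomb silencing, stayed near background in both genotypes. Of 38 with a probe, 30 were detected on no Prmt5-depleted array and 35 on no control array at their brightest probe, with 30 detected on no array of either genotype, and their summed background-corrected signal was 398 to 453 on Prmt5-depleted and 442 to 493 on control arrays. The 2 that could be tested, Hoxa13 and Hoxc10, differed by -0.26 and -0.17 (adjusted p = 0.258 and 0.348 in limma, with 0 of 2 at an unadjusted p under 0.05). Single arrays moved both: Hoxa13 differed by -0.14 without Prmt5-depleted 2 and by -0.41 without Prmt5-depleted 3, and Hoxc10 by -0.28 without control 2 and by -0.08 without control 3. Without the 3 arrays that lay apart Hoxa13 differed by -0.49 (adjusted p = 0.0457). These values are for its brightest probe. In the main limma fit of all 8 arrays a dimmer Hoxa13 probe was called lower (-0.42, adjusted p = 0.0161). That probe was detected on 2 of 4 Prmt5-depleted and 4 of 4 control arrays.

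Genes of dividing cells were also lower in Prmt5-depleted cells. Of 17 tested genes of S phase and mitosis, 15 fell and 0 rose, with 16 and 0 at an unadjusted p under 0.05 in limma, a median log2 difference of -1.01 and a summed signal of 12900 to 17200 on Prmt5-depleted against 28600 to 37300 on control arrays. The helicase subunit Mcm7 fell 3.28-fold and the topoisomerase Top2a fell 2.71-fold. Their part in the fall of Ezh2, Suz12, Ring1, Bmi1 and Cbx2 was not tested.

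Markers of cell types differed too. Of 12 neuron markers, 11 were tested, 10 rose and 0 fell, Snap25 was detected on no array, and the summed signal was 26000 to 28900 on Prmt5-depleted against 8240 to 9360 on control arrays. Of 12 neural stem cell markers, 8 were tested, 4 fell and 2 rose, with sums of 32700 to 35800 on Prmt5-depleted against 33600 to 38400 on control arrays. Slc1a3, which was not called, and Vim made up most of these sums. Their mean log2 signals were 13.77 and 13.95 on Prmt5-depleted against 14.07 and 13.41 on control arrays. The 4 that fell were Hes5, Hes1, Sox2 and Notch1, with log2 differences of -3.14, -1.4, -1.21 and -0.97. The 2 that rose were Vim, by 0.54, and Nes, which also mark the labelled cell type. All of these were detected on every array, while Pax6 and Msi1 were detected on none. The difference of 0.40 for Nes lost its call under 7 of 16 alternatives, among them leaving out Prmt5-depleted 2, 3 or 4 (0.36, 0.39 and 0.40, adjusted p = 0.098, 0.0827 and 0.0711) or control 2 or 3 (0.39 and 0.28, adjusted p = 0.0851 and 0.125), and its other probe differed by -0.09 (adjusted p = 0.676).

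Of 8 astrocyte markers 5 were tested, 3 rose and 0 fell, with Gfap and S100b detected on no array and sums of 6410 to 8880 on Prmt5-depleted against 3830 to 5690 on control arrays. Of 7 oligodendrocyte lineage markers with a probe, 6 were tested, 5 fell and 1 rose, Mag was detected on no array, and sums were 23100 to 27500 on Prmt5-depleted against 35100 to 39200 on control arrays. Most of these sums was Olig1, at a mean log2 signal of 14.61 on Prmt5-depleted against 15.08 on control arrays. The 1 that rose was Mbp (log2 difference 2.06). Of 7 microglia markers 1 was tested and 0 passed in limma (1 higher, 0 lower at an unadjusted p under 0.05), with C1qa, Itgam, Ptprc and Tyrobp detected on no array and sums of 80.1 to 117 on Prmt5-depleted against 65.1 to 79 on control arrays. Of 5 endothelium markers 0 could be tested, Cdh5, Pecam1 and Tek were detected on no array, and sums were 80.6 to 143 on Prmt5-depleted against 59.2 to 64.3 on control arrays. Of 6 mesenchymal markers, Dcn and Lum were tested and rose, Col1a1 and Pdgfrb were detected on no array, and sums were 499 to 884 on Prmt5-depleted against 109 to 126 on control arrays. Of 3 erythroid markers with a probe, Hba-a1 was tested and rose, Alas2 was detected on no array, and sums were 210 to 257 on Prmt5-depleted against 43.8 to 56 on control arrays. The microglia marker Aif1, Lum and Hba-a1 were each detected on 4 of 4 Prmt5-depleted and 0 of 4 control arrays. The oligodendrocyte lineage markers Pdgfra and Gpr17 were detected on 0 of 4 Prmt5-depleted and 4 of 4 control arrays. Each of these genes passed the detection filter only through the genotype where it was higher, so its direction is no separate evidence. The part of the marker differences in the Polycomb results was not tested.

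**Figure D4:**
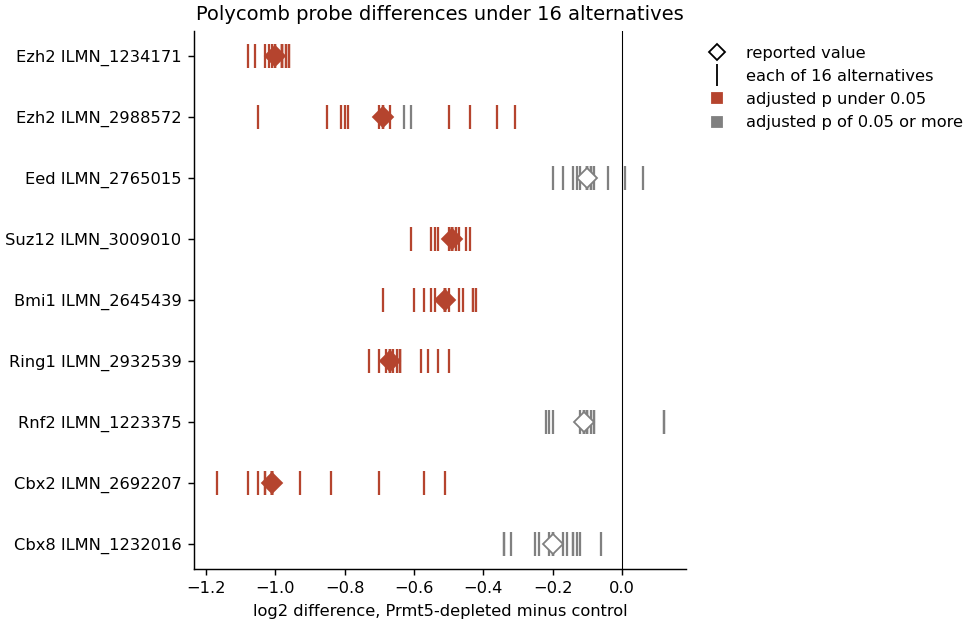
Log2 difference, Prmt5-depleted minus control, of the 9 tested Polycomb probes as reported (diamonds) and under each of 16 alternatives (ticks), coloured by whether the adjusted p was under 0.05. Ezh2 at its brighter probe stayed between -1.08 and -0.96, Cbx2 ranged from -1.17 to -0.51 and stayed called, and Eed and Rnf2 crossed 0.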

How the data were processed

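RNA of 4 Prmt5-depleted and 4 control samples was read on 1-colour bead arrays, and columns were assigned to samples through their names. The authors deposited intensity values that were not normalized, per the file headers, and beside each the authors deposited its detection p-value. For the scanner's software, the version is not given in the sources used here. A series matrix by the authors holds intensity values on a linear scale that equal the quantile-normalized deposited signals within 3.64e-12, without centring or background subtraction, with column medians of 95.7 or 95.8. They served as an alternative.

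Signals were corrected by normexp with detection p-values, given an offset of 16, quantile normalized and log2 transformed (neqc, limma 3.58.1, R 4.3.3). Offset and normexp shape the size of differences at dim probes, and quantile normalization would hide a change shared by most genes. Of 25662 probes 13196 were tested. Of all probes, 23943 carry 1 gene symbol, 0 several and 1719 none, from the platform annotation checked through Entrez IDs in RefSeq.

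Genotypes were compared per probe with lmFit and eBayes in limma, two-sided, without covariates. Adjusted p-values are Benjamini-Hochberg over all tested probes. A gene on a list is taken at its tested probe with the highest mean signal. Fold changes compare back-transformed log2 means. Summed signals of a list add 1 probe a gene after removing the offset, so the brightest genes of a list weigh most. The fit was run on simulated signals as a check of the code only. These had independent noise and far fewer changed probes than the data.

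The members, lists and tests were chosen with earlier results of these data known. The text names all probes of the members and Prmt5, up to 4 called genes a list by adjusted p, up to 2 called against the list's majority, the 2 with the smallest p where none was called, and the 3 genes nearest Ezh2. Marker genes are given mainly as counts, and no genes nearest Ezh1 are given, since it was not tested. Rbbp4, Rybp, Scml2, Asxl1, Foxk2, Mbd5, Kmt2a, Kmt2c, Kmt2d and Ash1l carried no probe under these symbols in the annotation used and were not analysed here.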

Additional observations from a re-analysis of the deposited data

Results flagged for a closer look

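Single arrays stood far from the other 3 of their genotype, by Dixon's criterion, in 9 of 112 groups of 4 examined, where chance gives about 1 in 20. The groups came from the tested Polycomb and Prmt5 probes and from some list and marker genes at their brightest probe. Those genes were the ones picked by the naming rule above, Cdkn2b and the called genes of the 4 Polycomb and Trithorax lists. The remaining list and marker genes were not examined. At the bright Ezh2 probe Prmt5-depleted 1 read 10.58, above the other Prmt5-depleted arrays at 10.21 to 10.27. At 2 Prmt5 probes control 1 read 9.64 and 10.02, below the other control arrays at 10.14 to 10.24 and 10.48 to 10.54. For E2f6 Prmt5-depleted 2 read 9.98, below the others at 10.10 to 10.12. For Cdkn1c Prmt5-depleted 4 read 10.77, above the others at 10.33 to 10.34. Among marker genes, Vim read 14.08 on Prmt5-depleted 1, above the others at 13.90 to 13.92. Sox2 read 10.91 on control 1, above the other control arrays at 10.44 to 10.50. On control 4 Notch1 read 10.63, below the other control arrays at 11.23 to 11.30, and Tbr1 read 6.20, above them at 5.95 to 5.99.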

How the results depend on the processing

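The number of Polycomb probes called lower was 5 or 6 and the number called higher was 0 under all 16 alternatives, which changed the background step, offset, filter, arrays, covariate or block. Of 144 values for the 9 tested probes under these alternatives, 137 kept their direction and their side of the threshold, 3 lost a call, all at the dim Ezh2 probe, and 4 changed sign, all without a call. Single arrays left out gave -0.20 to 0.01 for Eed and -0.22 to 0.12 for Rnf2. The sign changes were Eed at 0.01 and Rnf2 at 0.12 without control 4, and Eed at 0.06 and Rnf2 at 0.12 without Prmt5-depleted 1 and 3 and control 4. That last setting was chosen after seeing the data. The covariate setting used the same split, which was taken from the signals of these arrays. Of 734 values for Prmt5 and named list genes, 695 kept direction and side, 36 lost a call, 3 gained one and 0 changed sign. On the 4 Polycomb and Trithorax lists 5 to 8 genes were lower and 2 to 6 higher, against 6 and 4 as reported. The count of higher genes ran from 2 (without control 3) to 5 (without control 1) when single arrays were left out. Leaving out an array kept its normalization and the set of tested probes. All probes called lower numbered 2830 to 3716 and higher 2626 to 3226.

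The labels do not say whether the replicate numbers pair the samples. Deviations from the genotype mean correlated at -0.135, 0.244, -0.165 and -0.374 for numbers 1 to 4. No Prmt5-depleted sample correlated best with the control of its own number, and among the controls only control 2 correlated best with its own number. With so few arrays, some of them apart on the second component, these values cannot decide whether the samples were paired. With the replicate block 6 Polycomb probes were lower, and on the 4 lists 5 genes were lower and 2 higher, where the calls of Aebp2, Yaf2 and Wdr5 were lost, as were those of Cdkn2a and Nes on other lists. The exact test within blocks gave an adjusted p of 0.25 for both paralog pairs, in a design too small to pass the threshold. The dim probes of Ezh1 and Cbx7 and the third Ezh2 probe limit what could be seen.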
